A study of Mus musculus with 4 samples.

Results

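Arntl, Clock and Npas2 encode the activators of the circadian clock, and the CTCF binding sites around these 3 genes in mouse liver are described here. The genes were chosen by name, with earlier results of these data known. For each gene, every listed site was taken whose midpoint lay in the gene body or within 300 kb of either end of it, with gene bodies from the GENCODE annotation of the mm9 genome. The 3 genes, of 22350 protein-coding genes on the chromosomes that carry sites, had 9 of the 10113 sites listed at ZT0 and 5 of the 6799 sites listed at ZT12 in these windows. Counted once where the lists overlap, these sites occupied 10 positions.

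Arntl encodes BMAL1, which pairs with CLOCK or with its paralogue NPAS2. All are bHLH-PAS transcription factors, and the heterodimers bind E-box sequences and switch on the Period and Cryptochrome repressors and the REV-ERB nuclear receptors, so that the activators are restrained by their own targets. In liver, REV-ERB repressors and ROR activators in turn act on Arntl, Clock and Npas2. CTCF is a zinc-finger protein that binds a long DNA motif and holds the bases of chromatin loops together with cohesin, and loops form most readily between sites whose motifs point towards each other.

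The livers came from wild type male mice of the C57BL/6 strain, labelled as 8 weeks old, that were fed ad libitum and kept under 12 h of light and 12 h of dark. CTCF-bound DNA was recovered by ChIP-seq at ZT0 (zeitgeber time 0, lights on) and at ZT12 (lights off), with 2 biological replicates per time point. The study collected its livers in pools of 2, so that a replicate may average over animals. No separation of liver cell types is described. Each time point has 1 list of sites for both replicates together, with no score, strand or replicate, so that a site has no error of its own, read depth is unknown, and a site missing from a list may still be bound. The lists hold far fewer sites than the study describes for this experiment, for a reason not given in the sources used here, so that shared and ZT0-only refer to these lists and not to the full set of CTCF sites.

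In windows of 300 kb, Npas2 had the most listed sites of the 3 genes at both times. Arntl had 1 site at ZT0 and 1 at ZT12 in a window of 707 kb, Clock had 2 and 1 in 694 kb, and Npas2 had 6 and 3 in 770 kb. Over all protein-coding genes the median window held 4 ZT0 sites and 3 ZT12 sites. Per length of window, Arntl had 1.42 sites per Mb at both times, Clock had 2.88 at ZT0 and 1.44 at ZT12, and Npas2 had 7.80 and 3.90, against medians of 6.48 and 4.53 over all protein-coding genes. Arntl and Clock thus lay in the lower part of the distribution, at percentiles between 17.7 and 27.6, and Npas2 near its middle, at percentiles 56.2 (ZT0) and 48.3 (ZT12). Fewer sites were listed at ZT12 in the genome as a whole, and how far list length contributes to the lower ZT12 counts was not tested. The counts depend on the window: within 100 kb of the bodies, Arntl had 1 ZT0 site and 1 ZT12 site, Clock had 1 and 0 and Npas2 had 3 and 1, so that Npas2 and Arntl were level at ZT12. Within 500 kb, Arntl had 4 and 2, Clock 3 and 1 and Npas2 8 and 3, so that Arntl had more sites than Clock at both times, whereas at 300 kb it had fewer at ZT0 and as many at ZT12.

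**Figure D1:**
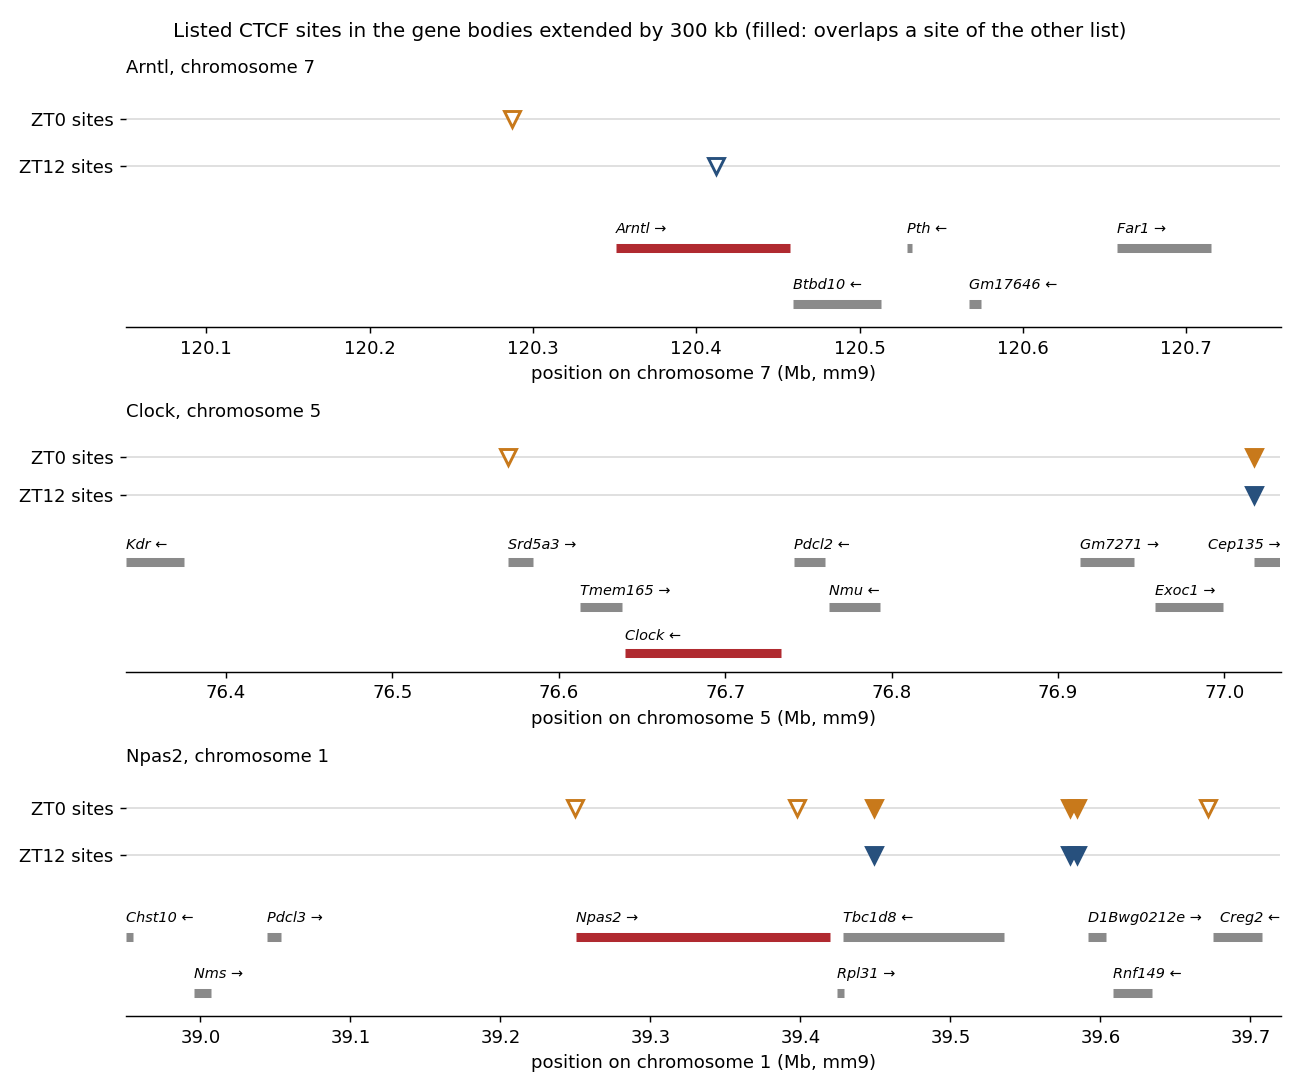
Positions of listed CTCF sites (triangles) along chromosomes 7, 5 and 1 (Mb, mm9) in the windows of Arntl, Clock and Npas2, with ZT0 sites in orange and ZT12 sites in blue. Filled triangles overlap a site of the other list, bars are protein-coding genes with arrows for their strand, and the only filled triangles are the 4 shared positions, 1 at Cep135 and 3 downstream of Npas2.

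Among the 9 ZT0 sites, 4 had a ZT12 counterpart that overlapped by at least 1 bp (44.4%, 95% Wilson confidence interval 18.9 to 73.3%), beside 56.2% of all ZT0 sites. Among the 5 ZT12 sites, 4 had a counterpart at ZT0 (80.0%, interval 37.6 to 96.4%), beside 83.6% of all ZT12 sites. Each interval includes the share of its whole list, and the lists are themselves only part of the sites the study describes. The intervals cover counting error only and treat sites as independent, also those of the same window. The remaining positions were 5 listed at ZT0 alone and 1 listed at ZT12 alone. No shared position lay in the Arntl window, 1 lay in the Clock window and 3 in the Npas2 window. Of the 6 positions within 100 kb of a member's body, 5 were listed at 1 time only and the shared one lay in Tbc1d8. Of the 4 positions farther away, 3 were shared. This split by distance was seen only after the sites had been listed and was not tested. The same split over all protein-coding genes is not given here, so nothing is read from it.

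Around Arntl, the gene for the partner of both CLOCK and NPAS2, neither listed site was shared. The gene spans chr7:120350979-120457636 on the plus strand. The ZT0 site at chr7:120287086-120287370 (285 bp) lay between genes, and its nearest transcription start was that of Arntl itself. The ZT12 site at chr7:120411912-120412151 (240 bp) lay in an Arntl intron. These sites stood on opposite sides of the transcription start at nearly the same distance, 63.6 kb upstream and 60.9 kb downstream, and 125 kb apart. Both distances were close to the medians over all protein-coding genes, 47.7 kb at ZT0 and 76.1 kb at ZT12. Each was narrower than the median site of its list, at 313 bp for ZT0 and 285 bp for ZT12.

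A ZT12 site in the body was found for Arntl and for neither of the other genes, beside 11.1% of all protein-coding genes. A ZT0 site in the body was found for Npas2 alone, beside 16.2% of all protein-coding genes. These background shares include many genes far shorter than the members, whose bodies measure 107 kb (Arntl), 93.8 kb (Clock) and 170 kb (Npas2).

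Clock, which spans chr5:76639992-76733817 on the minus strand, had no site in its body, and both positions in its window lay at the starts of other genes. The ZT0-only site at chr5:76569415-76569706 (292 bp) lay 70.3 kb beyond the 3′ end of Clock, in the first part of Srd5a3, 0.119 kb downstream of that gene's start, with its midpoint in an exon and part of the site in the annotated untranslated region. Srd5a3 encodes a reductase that makes dolichol for protein glycosylation. The shared position, at chr5:77017548-77017845 (298 bp) in the ZT0 list and chr5:77017498-77017761 (264 bp) in the ZT12 list, covered the start of Cep135, which encodes a protein of the centriole. The lists had 214 bp of this position in common, 71.8% of the ZT0 site and 81.1% of the ZT12 site.

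Both positions in the Clock window were rich in G, C and CpG dinucleotides. In 200 bp around the midpoint, GC content was 74.0% at Srd5a3 and 73.5% (ZT0) and 64.5% (ZT12) at Cep135, against a median of 53.0% over the sites of each list. The Srd5a3 site held 32 CpG dinucleotides and the ZT0 site at Cep135 held 36, against a median of 6 per ZT0 site. The ZT0 site next to the Npas2 start was the other GC-rich member of the set, with a GC content of 64.0% and 11 CpG dinucleotides. The other 7 positions had GC contents between 44.0 and 54.0% in both lists.

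Npas2 spans chr1:39250576-39420079 on the plus strand, and its sites fell into a ZT0-only group at the gene and a shared group downstream of it, followed by 1 more ZT0-only site. The ZT0-only site at chr1:39249665-39249910 (246 bp) lay between genes, 0.666 kb upstream of the annotated 5′ end. That end belongs to a transcript whose 3′ end is incomplete in the annotation, and the complete coding transcript begins at position 39251057, 1.15 kb from the site. A second ZT0-only site, at chr1:39397594-39397808 (215 bp), lay in an Npas2 intron, 147 kb downstream of the start. Its distance to a further annotated Npas2 start, at position 39398400, that of a short non-coding transcript, was 0.592 kb. So each ZT0-only site at the gene lay less than 1 kb upstream of an annotated Npas2 start, and the nearest ZT12 site was 199 kb from the first start and 50.7 kb from the last.

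A ZT0 site within 1 kb of the annotated start was found for 1 of the 3 members, Npas2, beside 7.04% of all protein-coding genes, and a ZT12 site for 0 of 3, beside 4.68%. Of the 1573 protein-coding genes with a ZT0 site that close, 989 (62.9%) also had a ZT12 site within 1 kb, and the median distance to the nearest ZT12 site was 0.460 kb. Npas2 was one of 183 such genes (11.6%) whose nearest ZT12 site was more than 100 kb away, a limit that was not planned. These counts place the start at the 5′ end of the incomplete transcript. From the start of the complete coding transcript the ZT0 site lay at 1.15 kb, outside the 1 kb limit, and by that start none of the 3 members had a site so close.

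The shared positions of the Npas2 window all lay downstream of the gene. In Tbc1d8, which encodes a TBC domain protein, the ZT0 site at chr1:39449000-39449360 (361 bp) enclosed the ZT12 site at chr1:39449077-39449320 (244 bp), with the midpoint in an intron and a coding exon of that gene touched by both. The next position was listed at chr1:39579464-39579685 (222 bp) at ZT0 and chr1:39579466-39579680 (215 bp) at ZT12, nearly the same interval. It was followed by chr1:39584379-39584706 (328 bp) at ZT0 and chr1:39584433-39584700 (268 bp) at ZT12. These neighbouring positions lay between genes, and the nearest start was that of D1Bwg0212e, 12.2 and 7.13 kb from the ZT0 sites. They formed a close pair with 4.69 kb between them at ZT0 and 4.75 kb at ZT12. A spacing of at most 5 kb was found for 8.98% of adjacent site pairs at ZT0 and 7.05% at ZT12. That limit was not planned and lies just above the spacings of this pair.

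The last site of the Npas2 window, at chr1:39671856-39672091 (236 bp), was ZT0-only and lay between genes, 87.2 kb from the nearest ZT12 site. Creg2 had the nearest start, 35.9 kb away. With a GC content of 44.0% it was the poorest in G and C of all listed sites in the windows.

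At each of the 4 shared positions the ZT12 site was narrower than the ZT0 site, by 34 bp at Cep135 and, in the Npas2 window, by 117, 7 and 60 bp in order of position. Over the whole lists the ZT12 site was narrower in 71.2% of 5665 pairs in which 1 ZT0 site and 1 ZT12 site overlapped each other alone. In 3 of the 4 pairs the ZT12 site lay inside the ZT0 site, beside 40.6% of those pairs. Widths of the 5 ZT0-only sites ranged from 215 to 292 bp and those of the 4 shared ZT0 sites from 222 to 361 bp, so the groups overlapped. Over all ZT0 sites the median width was 277 bp for ZT0-only and 346 bp for shared sites.

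In none of the 3 genes did the ZT0 site nearest to the transcription start overlap the nearest ZT12 site (0 of 3). The nearest sites overlapped in 49.2% of all protein-coding genes and in 8 of the 15 other clock genes, a count added after the distances had been seen. At Clock the nearest ZT0 site was that of Srd5a3, 164 kb from the start, and the nearest ZT12 site that of Cep135, 284 kb away on the other side. The corresponding percentiles over all protein-coding genes were 74.2 and 76.4 for Clock, 55.9 and 45.3 for Arntl, and 6.11 and 70.1 for Npas2. By its annotated 5′ end, Npas2 was thus among the nearest at ZT0 and in the upper part of the distribution at ZT12. There is no replicate value to set this difference against. The ZT12 placement depends on the start used. From the start of the short non-coding Npas2 transcript the nearest ZT12 site was 50.7 kb away, below the median of 76.1 kb over all protein-coding genes.

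**Figure D2:**
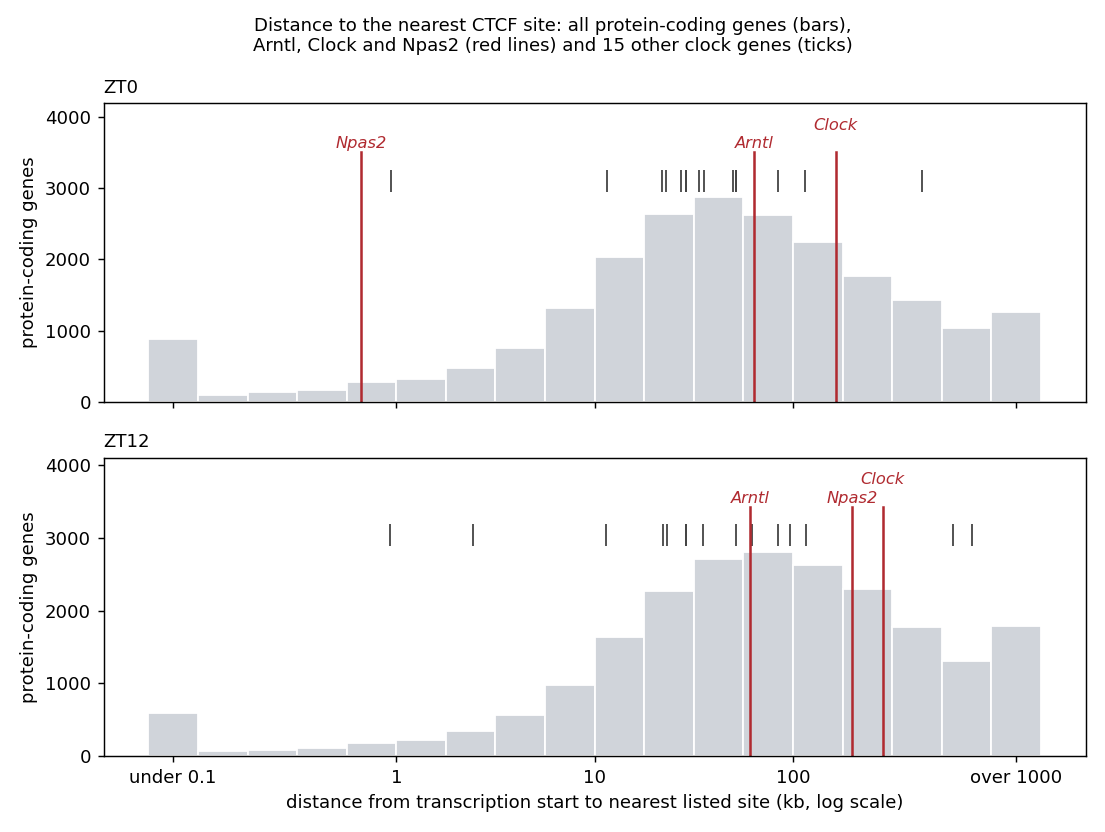
Number of protein-coding genes (vertical axis) by distance in kb from the transcription start to the nearest listed CTCF site (horizontal axis, log scale, with all distances under 0.1 kb in the first bar and all over 1000 kb in the last), for the ZT0 list above and the ZT12 list below. Red lines stand for Arntl, Clock and Npas2 and ticks for 15 other clock genes, and Npas2 lies at 0.666 kb at ZT0 and 199 kb at ZT12 while Arntl lies at 63.6 and 60.9 kb.

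The interval free of listed sites around each start was longer at ZT12 than at ZT0 for 3 of the 3 genes, beside 76.4% of 21177 protein-coding genes with no listed site over the start and 10 of the 15 other clock genes, so that this is the common case in these lists. For Npas2 it measured 148 kb at ZT0 and 1139 kb at ZT12. For Clock it measured 448 and 1464 kb, and for Arntl 615 and 798 kb. The medians were 256 kb at ZT0, over 22107 protein-coding genes, and 399 kb at ZT12, over 21928. Of these genes, 715 at ZT0 and 463 at ZT12 entered with a length of 0. The ZT0 interval of Npas2 was the 1 below its median. The ZT12 intervals enclosed 2 ZT0 sites at Arntl, 2 at Clock and 4 at Npas2, which are ZT0-only by construction.

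The genes enclosed differed accordingly. At ZT0 the Npas2 interval held no other start, whereas the ZT12 interval also held those of Aff3, Lonrf2, Chst10, Nms, Pdcl3 and Rpl31, among them the neuropeptide gene Nms and the ribosomal protein gene Rpl31. Around Clock, the ZT0 interval held Tmem165, Pdcl2, Nmu, Gm7271 and Exoc1, of which Nmu encodes the neuropeptide neuromedin U and Exoc1 a subunit of the exocyst. The ZT12 interval added Srd5a3 and the receptor tyrosine kinase genes Kit and Kdr. Around Arntl, the ZT0 interval reached downstream over Btbd10, Pth (parathyroid hormone), Gm17646, Far1 (a fatty acyl-CoA reductase) and Gm5600. The ZT12 interval reached upstream instead and held Tead1, which encodes a DNA-binding partner of the Hippo pathway coactivators.

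Listed sites lay on either side of the 300 kb limit, so that the counts depend on it. Just inside it lay the shared Cep135 position, 284 kb from the Clock body, and the ZT0-only site near Creg2, 252 kb from the Npas2 body. Just outside it lay the ZT0-only site at chr1:38913105-38913413, 337 kb from the Npas2 body and 20.2 kb from the start of Lonrf2, the ZT0-only site at chr7:120012568-120012816, 338 kb from the Arntl body in an intron of Tead1, and the ZT0-only site at chr5:76267243-76267464, 373 kb from the Clock body. The nearest ZT12 site outside the limit was the shared one at chr7:120902776-120903075, 445 kb from the Arntl body and 6.44 kb from the start of Spon1. Beyond Clock on its Kdr side, the next ZT12 site lay 1087 kb from the body, in an intron of Pdgfra.

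Every site in the windows held a match to a CTCF weight matrix of 19 positions, learned from listed sites on other chromosomes, at a p of 0.0001 per position. So did 99.6% of all ZT0 and 99.3% of all ZT12 sites, and the lists are labelled as the result of a motif search, so that a match is not a finding. In regions of the same widths 5 kb away, 21.3% (ZT0) and 20.5% (ZT12) held one. The best match of each position follows in mm9, 5′ to 3′ on the strand of the match, with the 19 matched bases in capitals and 5 bases of context on each side, to show which bases the positions have in common.
Arntl upstream, ZT0, chr7:120287207-120287235, plus strand: acaatCTGGGCAGCAGGTGGCGCAcatga
Arntl intron, ZT12, chr7:120412019-120412047, minus strand: aacaaCGTTCCAGCAGGTGGCAGCccagt
Srd5a3 start, ZT0, chr5:76569588-76569616, plus strand: ggggcGCGCCCGGCAGGGGGCAACagagg
Cep135 start, shared, chr5:77017662-77017690, plus strand: tcgggCTCCCCGCCAGGGGGCGCCgtagc
Npas2 upstream, ZT0, chr1:39249866-39249894, plus strand: taagcTCGCCCTGGAGGAGGCACCgagcg
Npas2 intron, ZT0, chr1:39397686-39397714, minus strand: tttgaATAACCAGCAGAGGGCACAcgtgc
Tbc1d8 intron, shared, chr1:39449220-39449248, plus strand: ctgtcAGTGCCACAAGGGGGCAGCagccc
near D1Bwg0212e, left, shared, chr1:39579586-39579614, minus strand: atgttCTTACCACTAGATGGCAGTcgaaa
near D1Bwg0212e, right, shared, chr1:39584470-39584498, plus strand: tgaggTCACCCACAAGGGGGCGCTgtggc
near Creg2, ZT0, chr1:39671937-39671965, plus strand: actgcTCAGTCACCAGGGGGCGCActaaa

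The best match lay on the plus strand at 7 of the 10 positions and on the minus strand at 3. At all 4 shared positions the ZT0 and the ZT12 site had the same best match. Against the most frequent base at each position of the matrix, GCGGCCACCAGGGGGCGCC, the positions had between 9 and 15 of 19 bases in common, with a median of 13 over all sites of each list. The left position near D1Bwg0212e had the fewest, 9, and was listed at both times, and the ZT0-only site near Creg2 had the most, 15. By log-odds score, the site upstream of Npas2 had the weakest match of the windows, 12.7, at percentile 6.76 of the ZT0 list. The Cep135 position had the strongest, 22.7, at percentiles 82.5 (ZT0) and 80.9 (ZT12), and the other positions scored between 19.2 and 20.8, near the medians of 19.2 (ZT0) and 19.5 (ZT12).

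The strands of the matches give the orientation of the sites around each start. By the best match of each site, the ZT0 sites around the Npas2 start pointed towards each other, as did the ZT12 sites around the Arntl start. The site upstream of Npas2, whose best match was the weakest of the windows, held matches at 2 positions. The Srd5a3 site held them at 3 and the Cep135 position at 4, and orientation by the other matches was not tested. Such convergent pairs bounded 30.5% of the ZT0 and 28.9% of the ZT12 intervals that hold a protein-coding start. The ZT12 sites around the Clock start pointed away from each other, an arrangement found at 24.7% of ZT12 intervals. The ZT0 sites around Arntl and around Clock and the ZT12 sites around Npas2 pointed the same way, the most frequent arrangement (45.2% at ZT0 and 46.4% at ZT12). By the best matches, the orientation was the same at both times for 0 of the 3 genes. It was so for 58.4% of 21177 protein-coding genes with listed sites on either side of the start at both times and none over it. For Npas2 at ZT0 the orientation rests on the best of the 2 matches in the upstream site. The count was added after the orientations had been seen. With 3 genes nothing is read from this, and contacts between these sites were not analysed here.

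Whole sites at or next to the member genes are printed from the plus strand of mm9, again with the best match in capitals, since they are the sites nearest to an activator's start that overlap no annotated exon.
Arntl upstream, ZT0, chr7:120287086-120287370: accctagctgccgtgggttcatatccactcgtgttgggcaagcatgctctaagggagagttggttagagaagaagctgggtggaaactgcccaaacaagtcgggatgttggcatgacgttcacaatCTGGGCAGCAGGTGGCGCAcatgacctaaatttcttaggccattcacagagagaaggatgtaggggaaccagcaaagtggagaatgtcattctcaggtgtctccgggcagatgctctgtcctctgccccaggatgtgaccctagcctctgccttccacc
Arntl intron, ZT12, chr7:120411912-120412151: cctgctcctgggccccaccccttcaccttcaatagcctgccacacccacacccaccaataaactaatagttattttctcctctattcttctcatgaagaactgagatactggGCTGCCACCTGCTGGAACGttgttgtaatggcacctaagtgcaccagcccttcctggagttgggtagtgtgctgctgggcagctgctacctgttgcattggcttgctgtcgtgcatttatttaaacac
Npas2 upstream, ZT0, chr1:39249665-39249910: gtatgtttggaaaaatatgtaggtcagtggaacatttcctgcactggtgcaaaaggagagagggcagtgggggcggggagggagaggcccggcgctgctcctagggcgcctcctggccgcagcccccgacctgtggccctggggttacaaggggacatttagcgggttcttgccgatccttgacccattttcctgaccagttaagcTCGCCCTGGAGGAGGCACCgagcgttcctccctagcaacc
Npas2 intron, ZT0, chr1:39397594-39397808: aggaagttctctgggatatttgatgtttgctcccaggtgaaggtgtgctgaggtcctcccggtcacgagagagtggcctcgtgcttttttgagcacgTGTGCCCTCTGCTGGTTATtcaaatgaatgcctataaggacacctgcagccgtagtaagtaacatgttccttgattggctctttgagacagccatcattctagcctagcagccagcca

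In the site upstream of Npas2, which held matches at 2 positions, the best match lay near the right-hand edge, 92.5 bp from the midpoint. The place of the other match is not given here. In the Arntl sites, with a match at 1 position each, the match lay within 7 bp of the midpoint. The E-box CACGTG, the letters that the activators' heterodimers bind, reads the same on both strands. It was found in 2 of the 9 sites at ZT0 and in 0 of the 5 at ZT12, beside 5.64% of all ZT0 and 5.09% of all ZT12 sites, and 5.02% and 4.87% of regions of the same widths 5 kb away. One lay at chr5:76569626-76569631 in the Srd5a3 site, apart from the best CTCF match. The other lay at chr1:39397687-39397692 in the Npas2 intron site and had 2 bases in common with the CTCF match. A match to these letters does not show binding, and binding of the activators was not measured here.

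A list of 15 other clock genes was set beside the members: Arntl2, Per1, Per3, Cry2, Nr1d1, Nr1d2, Rora, Dbp, Tef, Hlf, Nfil3, Bhlhe40, Bhlhe41, Csnk1d and Csnk1e. At each time, 14 of the 15 had a site in the window, all but Bhlhe41 at ZT0 and all but Nr1d2 at ZT12. Their windows held a median of 6 ZT0 sites (0 to 23) and 4 ZT12 sites (0 to 16), with the most at Nr1d1, which encodes the repressor REV-ERBα. Of the 18 genes in all, 16 had more ZT0 sites than Arntl, 12 more than Clock and 7 more than Npas2. At ZT12, 14 had more than Arntl or Clock and 8 more than Npas2.

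Ranked by distance among the 18 genes, Npas2 had the nearest ZT0 site and held rank 15 at ZT12, Arntl held ranks 14 and 10, and Clock ranks 17 and 16. The 15 other genes had a median distance of 33.5 kb at ZT0 and 35.1 kb at ZT12. Among them, 1 had a site within 1 kb of its start at either time, Bhlhe40, a repressor that competes for E-boxes, at 0.943 kb (ZT0) and 0.927 kb (ZT12). Measured from its complete coding transcript, at 1.15 kb, Npas2 came after Bhlhe40 at ZT0. Its rank at ZT12 also depends on the start. From the nearest of all annotated Npas2 starts the ZT12 distance was 50.7 kb, less than the 60.9 kb of Arntl at rank 10. Arntl2, the paralogue of Arntl, had 2 ZT0 and 3 ZT12 sites in its window, with the nearest 33.5 and 28.9 kb from its start.

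Genes elsewhere in the genome had much the same numbers and distances. By the number of ZT0 and ZT12 sites in the window and the log10 distances to the nearest ZT0 and ZT12 site, each divided by its SD over all protein-coding genes, the genes most like Arntl were Bmp2 on chromosome 2 and Zfp174 on chromosome 16, each with 1 and 1 site and at most 0.0135 SD away. Bmp2, a gene for a bone morphogenetic protein, had its nearest sites at 62.5 and 62.6 kb. Vmn2r10 on chromosome 5 and Ms4a7 on chromosome 19 were most like Clock, within 0.0174 SD. For Npas2 the nearest were Cdk6, which encodes a cell cycle kinase, on chromosome 5, and 1700063H04Rik on chromosome 6, at 0.232 and 0.233 SD, each with 5 ZT0 and 3 ZT12 sites. Cdk6 had a ZT0 site 0.542 kb and a ZT12 site 173 kb from its start, the same sequence of near and far as Npas2.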

How the data were processed

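CTCF ChIP-seq was carried out on mouse liver with an antibody from Millipore, with 2 replicates at each of ZT0 and ZT12 (4 samples). The authors aligned reads to NCBIM37/mm9 (Bowtie2), applied a mapping quality filter (SAMtools), took out duplicates (Picard) and ran MACS2 at default settings for peaks. They deposited 1 list of peak positions (start and end in bp) per time point, which by its label covers both replicates and has passed through FIMO, a motif search. How the replicates were combined and the FIMO threshold are not given in the sources used here. The lists hold no score, so depth and replicate spread could not be measured.

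Here, sites were assigned to windows by midpoint, compared by overlap of at least 1 bp and annotated with GENCODE for NCBIM37. Coordinates are 1-based. The genome sequence used carries no repeat marking, so a planned share of repeats was not computed. The weight matrix began with exact core matches among the sites and went through 3 rounds of refinement, with a matrix from even-numbered chromosomes and X used on the odd-numbered ones, and the reverse. No test was run, and Wilson intervals are at 95%. Genes named are the members, the genes that host sites or have the nearest start, those inside the intervals free of sites, the list of 15 other clock genes and the 2 genes most like each member. A further gene of that list is not reported here. Sites just outside the windows are also named. The members and lists were chosen with earlier results of these data known. Overlap, distances and motif placement were tested on simulated data. Python 3.11.15, NumPy 2.4.6, SciPy 1.17.1, pysam 0.24.0 and Matplotlib 3.10.9 were used.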

Additional observations from a re-analysis of the deposited data

How the results depend on the processing

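Of 68 alternative values computed for 24 results, 59 were within 1.5 times of the main value and 9 were not. With windows of 100 kb, Clock had 1 ZT0 site and 0 ZT12 sites, Npas2 had 3 ZT0 sites and 1 ZT12 site, and the windows together held 1 shared site in either list. With windows of 500 kb, Arntl had 4 ZT0 sites and 2 ZT12 sites. Why the counts moved was not tested, and percentiles over all protein-coding genes are given here for windows of 300 kb only. Measured from the nearest of all annotated starts, the nearest ZT12 site of Npas2 was 50.7 kb away, which rests on the start of the short non-coding transcript. Gene bodies from the study's own table of circadian genes gave identical values.

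No paired analysis was possible because neither list separates its replicates and no test was run. Leaving out a replicate and a stricter peak threshold were not possible for the same reason and because the lists hold no score. With so few sites per gene, a single site decides most of the counts.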
